A study of Mus musculus with 8 samples.

Results

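The regions described here are anti-IRF5 CUT&Tag peaks whose summit the authors' annotation placed in the 5' untranslated region (5' UTR) of a gene. A peak of a single-library list was taken when its annotation named a 5' UTR and did not also put it in the promoter class of any gene. Of 105945 peaks in 4 libraries on the 21 assembled nuclear chromosomes, 3205 met this rule, and 1241 further peaks with a 5' UTR were left out because they also carried the promoter class. Merging all peaks that overlapped by at least 1 bp gave 55621 regions, of which 2042 held a 5' UTR peak. The 5' UTRs belonged to 2078 gene IDs, of which 2027 had a name in the files.

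The cells were wild-type mouse macrophages derived from bone marrow. They had received CpG, DNA with unmethylated CG pairs that is sensed by the receptor TLR9, or PBS as the control, with no dose or time of treatment stated in the labels. Each condition had 2 anti-IRF5 libraries, called CpG 1, CpG 2, control 1 and control 2 below. The other 4 of the 8 samples are IgG libraries without a list of their own and were not analysed here. Both control libraries were called against an IgG library named for the control, and the CpG libraries against IgG named for CpG. The IgG background and the condition therefore cannot be told apart. In all 3 IgG names occur, as CpG 1 and CpG 2 have a different one each. Whether these stand for the same IgG library is not stated, so the background may also differ between the CpG libraries. Nothing in the labels says that the libraries stem from different animals or cultures, so p-values below cover the spread among libraries alone, which may be technical.

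IRF5 is an interferon regulatory factor that is activated downstream of MyD88 when Toll-like receptors sense microbial products, and in macrophages it is known for its role at inflammatory cytokine genes. CUT&Tag uses an antibody to tether a transposase beside the bound protein, and the DNA fragments it cuts out are sequenced. The 5' UTR is the transcribed stretch between a gene's start and its first codon. At the level of DNA it lies just downstream of the core promoter, and in the mRNA it governs how ribosomes find the start codon.

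Of 8 macrophage marker genes that the files name, Cd14 alone had a 5' UTR peak, and 7 had a promoter peak in at least 1 library. None of the dendritic cell, B cell, T and NK cell, erythroid and megakaryocyte, or stromal and endothelial markers had a 5' UTR peak. The files name only 4, 2, 2, 1 and 3 of these markers, in that order. Of them, 2 dendritic cell, 1 T and NK cell and 1 erythroid and megakaryocyte marker had a promoter peak. Among 4 neutrophil markers S100a8, a calcium-binding protein, had 1 5' UTR peak, in control 2, and 1 marker had a promoter peak. CpG 1 stood apart from the other libraries with 13553 peaks, against 25851 in CpG 2, 29226 in control 1 and 37315 in control 2. The lists give no read totals, so the depth of each library is unknown.

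Short stretches of DNA around the starts of genes with a 5' UTR peak are shown to let a reader see what these windows hold. They were read from RefSeq promoter windows of GRCm38.p6, each with 250 bases before a gene's start and 50 after it, because no genome of the build of the files was at hand. Only 274 of 10785 genes (2.54%) started within 1000 bp of the same position in both, so the coordinates of these sequences are not on the numbering used for peaks below. Each stretch has 30 bases, reads 5′ to 3′ on the strand of the gene, and has its motif match in capitals. C3ar1, Ccl9, Nfkb2, Suclg1 and Tm9sf4 had a 5' UTR peak in all 4 libraries, Rps7 in both CpG libraries alone, and Arnt, Dnajc7 and Serpinb8 in both control libraries alone. Gbp2, an interferon-stimulated gene, had one in both CpG libraries.
C3ar1, AP-1 match 22 bases before the start, chr6:122856161-122856190, minus strand: agtttaagaggTGACTCAtggaaaggccct
Ccl9, AP-1 match 53 bases before the start, chr11:83578671-83578700, minus strand: tttactctctcTGAATCAatttgaactttg
Nfkb2, NF-kB match at base 11 of the transcript, chr19:46305695-46305724, plus strand: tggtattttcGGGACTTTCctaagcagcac
Suclg1, interferon response match on the other strand 160 bases before the start, chr6:73248335-73248364, plus strand: ttccaaccccTTCCCTTTCagcacgctgct
Tm9sf4, interferon response match on the other strand 112 bases before the start, chr2:153161179-153161208, plus strand: ttaccatgctTTCCGTTTCacaattaaggt
Gbp2, interferon response match on the other strand 58 bases before the start, chr3:142620595-142620624, plus strand: ctcttttagtTTCACTTTCactgtcttaag
Rps7, ETS match on the other strand 14 bases before the start, chr12:28635949-28635978, minus strand: tttcagaagagCTTCCGGtttccacccacc
Arnt, YY1 match on the other strand at base 11 of the transcript, chr3:95434390-95434419, plus strand: ggtgggcgtcCGCCATCTTggattccgcgg
Dnajc7, YY1 match at base 21 of the transcript, chr11:100619588-100619617, minus strand: tcccggcggtAAGATGGCGgctaccgcgga
Serpinb8, AP-1 match at base 14 of the transcript, chr1:107590008-107590037, plus strand: gcattatgttcTGAGTCAcccgacaggcgc

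The motifs were searched as plain letters on both strands, where N stands for any base, and a match is a description of the letters and not a bound site. The interferon response letters GAAANNGAA, the core of the element bound by IRF proteins, were in 144 of 2066 windows (6.97%) of genes with a 5' UTR peak. They were in 347 of 4998 windows (6.94%) of genes with a promoter peak and no 5' UTR peak, and in 2812 of all 32851 windows (8.56%). The GC box GGGCGG was in 61.4% of the windows of 5' UTR genes and 63.9% of those of promoter-only genes. It was in 46.2% of the windows of all protein-coding genes and 35.7% of all windows. The ETS letters CCGGAAG were in 17.2%, 18.2%, 11.6% and 8.86% of the same sets, in that order.

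The AP-1 letters TGANTCA were in 129 windows (6.24%) of 5' UTR genes, 4.92% of those of promoter-only genes and 7.81% of all windows. Among the 69 windows of genes whose 5' UTR peak recurred in all 4 libraries, 7 (10.1%) held them. The NF-kB letters GGGACTTTC were in 9 windows (0.436%) of 5' UTR genes, 0.480% of those of promoter-only genes and 0.353% of all windows. Of the 9, 2 were overlapping windows of Nfkb2 that share the match printed above. The YY1 letters AAGATGGCG were in 51 windows (2.47%) of 5' UTR genes and in more, 3.32%, of those of promoter-only genes. The share was 1.83% for all protein-coding genes and 1.40% for all windows. They were in 6 of 98 windows (6.12%) of genes with a control-only 5' UTR peak and in 0 of the 69 windows of recurrent genes. The median GC content of the window was 60.0% for 5' UTR genes and 61.3% for promoter-only genes. It was 56.3% for all protein-coding genes and 52.7% for all windows. In GC content, 5' UTR genes thus resembled other genes with a peak at their start more than either wider set. Of 2008 names of genes with a 5' UTR peak, 1637 matched a window.

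The first comparison asks whether CpG changed how many 5' UTR peaks were called. CpG 1 had 273 and CpG 2 had 894 of them, against 996 in control 1 and 1042 in control 2. Both CpG libraries were below both control libraries, but they lay far apart from each other. The mean number was 583.5 ± 439.1 in CpG libraries and 1019 ± 32.5 in control libraries (SD, n = 2 each), a ratio of 0.573. A two-sided exact permutation test, with 6 ways to assign the libraries, gave p = 0.333, which is the smallest p this design allows. The difference in number was -435.5, and it was -125.0 without CpG 1 and -746.0 without CpG 2. When each list was shortened to the length of the shortest, the difference was -160.5 (exact permutation p = 0.667). The numbers were then 273 in CpG 1 and 495 in CpG 2, against 600 in control 1 and 489 in control 2. CpG 2 thus lay above control 2, and the conditions overlapped.

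As a share of all peaks, 5' UTR peaks made up 2.01% in CpG 1 and 3.46% in CpG 2, against 3.41% in control 1 and 2.79% in control 2. The ranges of the conditions overlapped. The means were 2.74 ± 1.02% and 3.10 ± 0.435% (SD, n = 2 each), with p = 1.00 in the exact permutation test. The difference of -0.364 percentage points was 0.358 without CpG 1 and -1.09 without CpG 2. It was -1.18 with all lists at the length of the shortest (exact permutation p = 0.667) and -1.34 with only peaks of a −log10 q of at least 10 (exact permutation p = 0.333), where the conditions did not overlap.

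**Figure D1:**
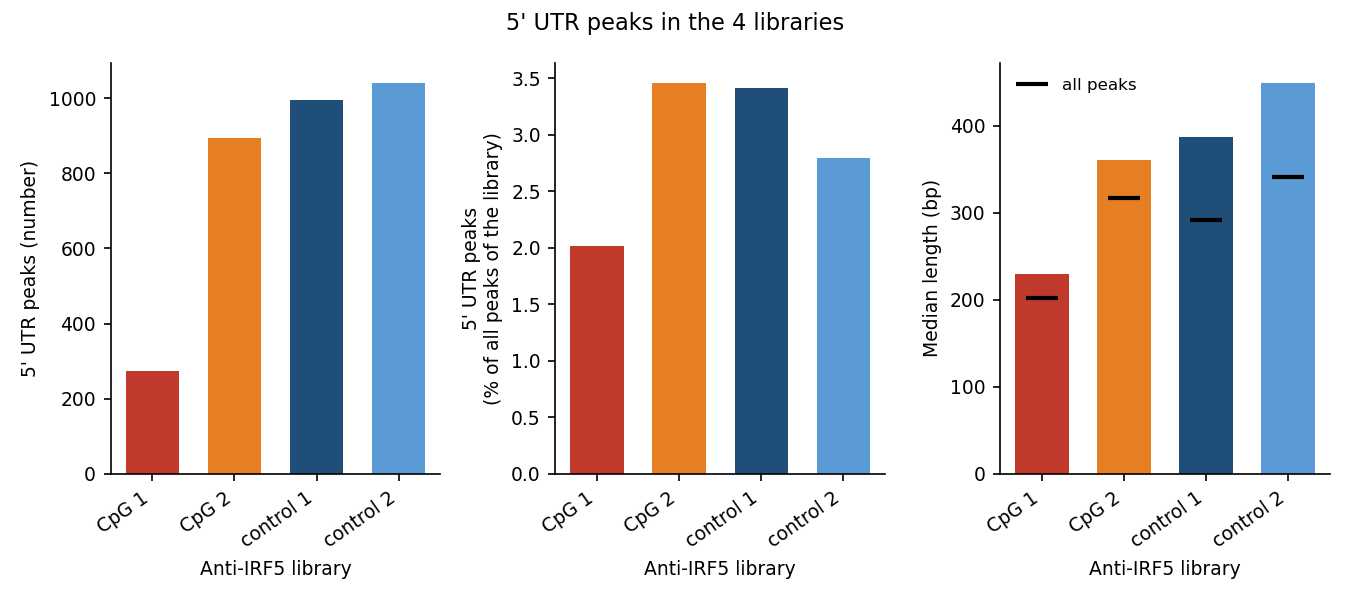
Number of 5' UTR peaks, their share of all peaks of the library (%) and their median length (bp) in the 4 anti-IRF5 libraries, 1 bar per library, with a black line for the median length of all peaks. CpG 1 has 273 peaks of this kind and the other libraries between 894 and 1042, and the bars of length stand above the black lines in every library.

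The 5' UTR peaks lay close to gene starts. Of the 3149 whose gene's start is given in the files, 1665 (52.9%) had their summit within 100 bp downstream of it and 794 (25.2%) in the next 100 bp. Another 373 (11.8%) lay over 200 and up to 500 bp away, 124 (3.94%) over 500 and up to 1000 bp, and 193 (6.13%) beyond 1000 bp, up to 111478 bp. No summit lay upstream of the start, which follows from the class itself. The interval of the peak reached back over the start in 2120 of the 3149 (67.3%).

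The median summit distance was 71.5 bp in CpG 1 and 91.0 bp in CpG 2, against 99.0 bp in control 1 and 93.0 bp in control 2. CpG 1 stood lowest and CpG 2 was within 8 bp of both control libraries. The means were 81.2 ± 13.8 bp in CpG and 96.0 ± 4.24 bp in control libraries (SD, n = 2 each), a difference of -14.8 bp with p = 0.333 in the exact permutation test, -5.00 bp without CpG 1 and -24.5 bp without CpG 2. It was -8.75 bp with a −log10 q of at least 10 (exact permutation p = 0.667) and -2.50 bp, with no test, in the authors' lists for whole conditions. In 65 regions with a 5' UTR peak in all 4 libraries, the 4 summits spanned a median of 108.0 bp, with quartiles of 53.0 and 145.0 bp. The summits of both CpG libraries were a median of 46.0 bp apart and those of both control libraries 37.0 bp. By distance from the nearest start, the CpG summits were further downstream in 22 and less far in 39 of 63 such regions, with a median shift of -16.0 bp. Where a region held the 5' UTRs of several genes, as at Odr4 and Tpr, the nearest start could differ between libraries. The shift of such a region is not a movement of the summit.

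**Figure D2:**
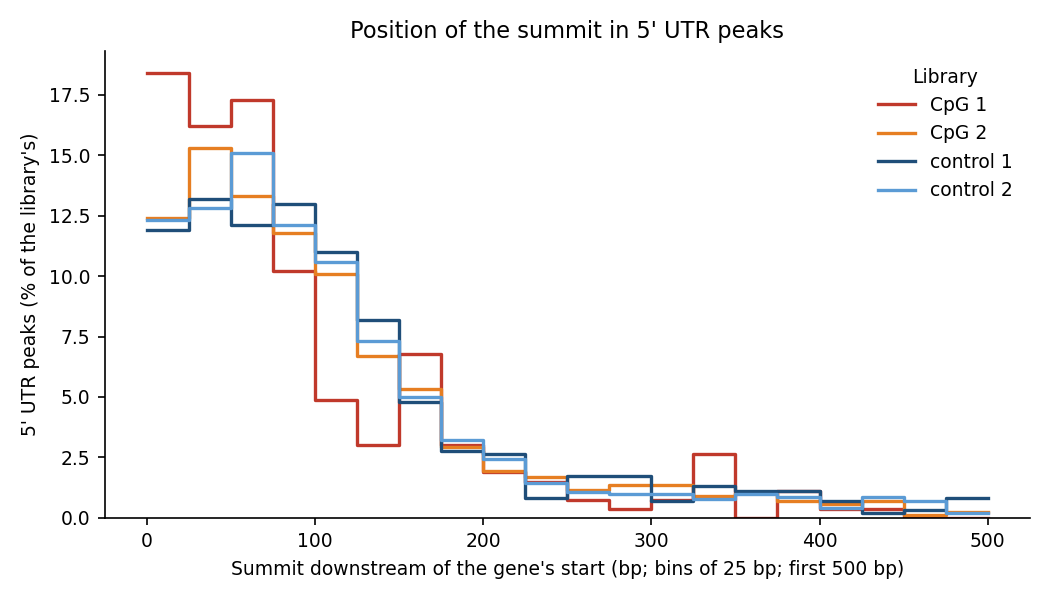
Share of the 5' UTR peaks of each library (%) by the distance of the summit downstream of the gene's start, in bins of 25 bp over the first 500 bp, 1 line per library. The lines are highest in the first 100 bp, which hold 62.0% of peaks in CpG 1, 53.2% in CpG 2, 50.4% in control 1 and 52.6% in control 2.

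The peaks were longer than the average peak of their own list. Their median length was 229.0 bp in CpG 1 and 361.0 bp in CpG 2, against 386.5 bp in control 1 and 449.5 bp in control 2, while the median of all peaks was 202.0, 317.0, 291.0 and 341.0 bp in the same libraries. The control libraries had the longer 5' UTR peaks, but the CpG libraries also differed from each other by more than CpG 2 differed from control 1. The mean of the medians was 295.0 ± 93.3 bp in CpG and 418.0 ± 44.5 bp in control libraries (SD, n = 2 each), with p = 0.333 in the exact permutation test. The difference of -123.0 bp was -57.0 bp without CpG 1 and -189.0 bp without CpG 2, and -258.8 bp (exact permutation p = 0.333) once the lists were trimmed to 1 length.

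The strength of a peak is given in the lists as a fold enrichment, the authors' ratio of its pileup to the local background. The tests used it only as a rank within a list, as the percentile of a peak among all peaks of its library, where 50 is the middle. Fold enrichments of single genes below are printed as deposited, and their scale differs between lists. Among 5' UTR peaks the highest was 13.7 in CpG 1 and 46.3 in control 2. The median percentile of 5' UTR peaks was 34.7 in CpG 1 and 37.6 in CpG 2, against 47.0 in control 1 and 44.5 in control 2. These peaks ranked below the middle of every list, and lower in both CpG libraries than in both control libraries. The means were 36.2 ± 2.06 and 45.8 ± 1.81 (SD, n = 2 each), a difference of -9.57 percentile points with p = 0.333 in the exact permutation test. The difference was -11.0 to -8.11 when any library was left out, but it shrank to -0.668 (exact permutation p = 1.00) once all lists had the length of the shortest. It was -3.26 with a −log10 q of at least 10 (exact permutation p = 0.667) and -3.94 when peaks were ranked by pileup (exact permutation p = 0.333).

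The pileup, the authors' signal at the summit, gave a different order. It was a median of 21 in CpG 1, 22 in CpG 2, 23 in control 1 and 25 in control 2 for 5' UTR peaks, against 16, 17, 16 and 18 for all peaks of the same lists. The 5' UTR peaks were thus taller in signal than the middle of their list while their ratio to the local background was lower. Promoter peaks shared this trait, with a median pileup of 22 in CpG 1, 22 in CpG 2, 21 in control 1 and 22 in control 2. Their median percentiles also lay below the middle of each list. Above the 90th percentile of fold enrichment, CpG 1 had 18 of its 5' UTR peaks (6.59%) and CpG 2 had 44 (4.92%), against 110 (11%) in control 1 and 58 (5.57%) in control 2.

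Peaks of the promoter class were the nearest relatives. Their median percentile was 37.4 in CpG 1, 44.6 in CpG 2, 47.8 in control 1 and 46.0 in control 2, and 5' UTR peaks lay lower in 4 of 4 libraries, with a mean difference of -2.99 ± 2.79 points (SD, n = 4). The 5' UTR peaks were also longer than promoter peaks in 4 of 4 libraries, by 27.2 ± 17.1 bp. Both gave p = 0.125 in an exact sign-flip test over the libraries, the smallest it can give, and 0.214 after Benjamini-Hochberg adjustment over 12 such comparisons of classes. Against 3' UTR peaks, 5' UTR peaks ranked lower by a mean difference of -8.55 ± 5.49 points and were 91.6 ± 60.7 bp longer, in 4 of 4 libraries each, with the same exact p = 0.125. Against exon peaks outside UTRs they ranked lower in 2 of 4 libraries (exact sign-flip p = 0.5) and were longer in 4 of 4.

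**Figure D3:**
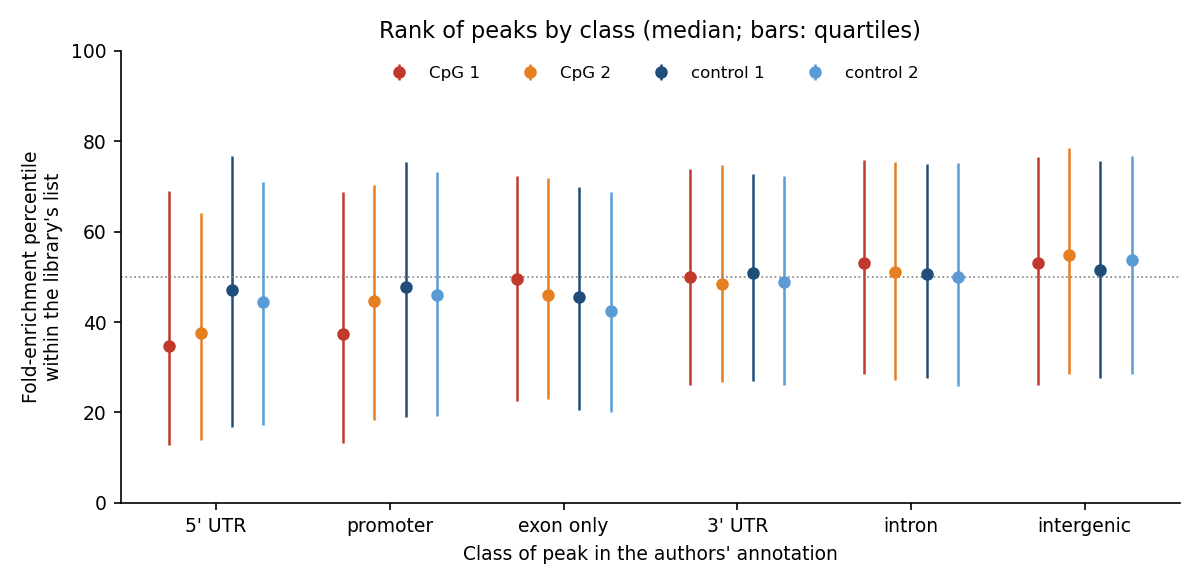
Percentile of fold enrichment within the library's own list for 6 classes of peak, with the median as a point and the quartiles as a bar, 1 colour per library. The 5' UTR medians run from 34.7 to 47.0 and the promoter medians from 37.4 to 47.8, below the dotted line at 50, while the intergenic medians are between 51.5 and 54.8.

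The next question is which of the 2042 regions recurred. A peak was present in all 4 libraries at 397 of them (19.4%), where 10.1% of all merged regions and 15.6% of regions with a promoter peak had that pattern. A region counts as a 5' UTR region if any of its peaks has that class, so one called in more libraries had more chances to be counted. Counted per peak, 5' UTR peaks overlapped a peak of every other library less often than promoter peaks in 4 of 4 libraries. The mean difference was -2.25 ± 2.23 points (SD, n = 4), with an exact sign-flip p = 0.125, or 0.214 after adjustment over the 12 comparisons. A further 612 regions (30.0%, against 12.2% of all regions) had a peak in CpG 2, control 1 and control 2 and lacked one in CpG 1. When CpG 1 was left out, 972 regions had a peak in each of the other libraries. The single-library patterns were rarer than in the whole set, at 190 regions (9.30%) found in control 2 alone, against 24.1% of all regions.

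In the 397 shared regions the class itself moved between libraries. A 5' UTR peak was present in 1 library at 175 of them, in 2 at 94, in 3 at 63 and in 4 at 65. Of the 1078 other peaks in these regions, 690 (64.0%) were in the promoter class, 372 had an intron and 26 were intergenic. The share of 5' UTR peaks that overlapped a peak of every other library was 64.5% in CpG 1 and 23.0% in CpG 2, against 23.1% in control 1 and 19.6% in control 2. Over all peaks of a library that share was 46.2% in CpG 1 and 25.8% in CpG 2, against 23.0% in control 1 and 16.5% in control 2. The 5' UTR peaks were thus above all peaks in CpG 1 and control 2, below them in CpG 2 and level with them in control 1. CpG 1, the shortest list, had the largest share by either count. The means were 43.8 ± 29.3% and 21.3 ± 2.49% (SD, n = 2 each), with p = 0.667 in the exact permutation test. The difference of 22.4 points was 8.60 without CpG 1 and 44.7 without CpG 2, and 9.13 (exact permutation p = 0.333) once the lists were trimmed to 1 length.

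**Figure D4:**
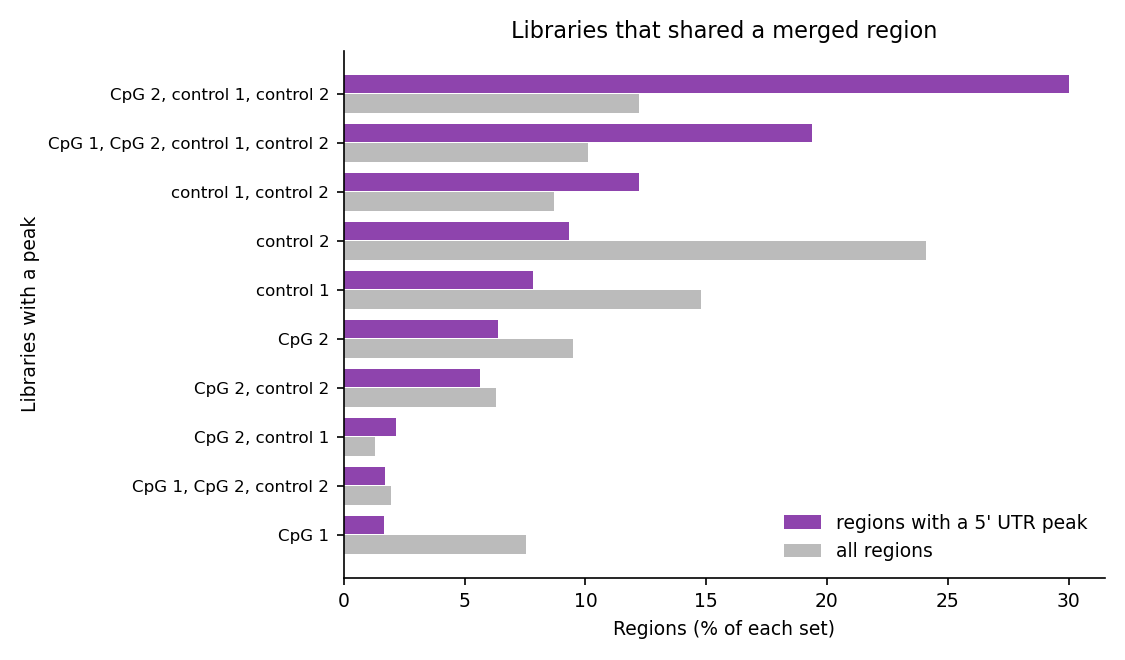
Merged regions by the libraries that had a peak there, as a share (%) of the 2042 regions with a 5' UTR peak in purple and of all 55621 regions in grey, for the 10 patterns most frequent among the 5' UTR regions. Regions lacking a peak in CpG 1 alone make up 30.0% of the 5' UTR set and 12.2% of all regions.

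The recurrent region with the highest lowest percentile over the 4 libraries was at Nfkbiz, which encodes IκBζ, a nuclear regulator of NF-kB target genes that is induced by Toll-like receptors. The gene lies on chromosome 16 at 55631737 to 55659262 on the minus strand, in the numbering of the files. Its fold enrichment was 13.7 in CpG 1 and 27.6 in CpG 2, against 11.4 in control 1 and 16.6 in control 2, and its percentile was 99.4, 99.1, 94.8 and 95.5 in the same order. It was the highest of all 5' UTR peaks in CpG 1, while C3ar1 was higher than Nfkbiz in the other 3 libraries, with 27.9 in CpG 2, against 30.5 in control 1 and 46.3 in control 2. The Nfkbiz summits lay 95, 140, 104 and 87 bp downstream of the start, within 53 bp of one another.

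C3ar1, the receptor of the complement fragment C3a, was the next single gene by its lowest percentile (chromosome 6, 122824096 to 122833120, minus strand). Its fold enrichment was 6.77 in CpG 1 and 27.9 in CpG 2, against 30.5 in control 1 and 46.3 in control 2. Only the CpG 1 value lay under the 99th percentile of its list, at 83.0. The intervals were 319 and 1200 bp long in the CpG libraries and 2549 and 2749 bp long in the control libraries, so both control intervals were longer than both CpG intervals. Its peak was the highest 5' UTR peak of control 2.

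A shared start region on chromosome 11 ranked between them, where Rps27a, encoding ubiquitin fused to a ribosomal protein, and Clhc1 start back to back. Its peak had a fold enrichment of 8.55 in CpG 1 and 11.2 in CpG 2, against 20.1 in control 1 and 23.3 in control 2, and percentiles of 93.8, 89.0, 99.4 and 98.2. Both percentiles were lower in the CpG libraries than in the control libraries. Odr4 and Tpr, a protein of the nuclear pore basket, share a start region of the same kind on chromosome 1, with percentiles of 62.8 and 87.8 in the CpG libraries and 81.3 and 63.6 in the control libraries, which overlapped.

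The other recurrent regions named by the same ranking were at genes outside the gene lists. Tm9sf4, a membrane protein, had percentiles of 78.3 and 94.6 in CpG libraries and 79.1 and 96.4 in control libraries. Tra2b, a splicing regulator, had 76.9 and 93.9, against 94.7 and 82.6. The conditions overlapped at both genes. Suclg1, a subunit of the succinyl-CoA ligase of the citric acid cycle, had 67.5 and 87.9 in CpG libraries, against 87.6 and 66.7 in control libraries. The region of Pih1d2 and ENSMUSG00000059820 had 82.6 and 86.5, against 70.8 and 71.5, and was higher in both CpG libraries. Sirt4, a mitochondrial sirtuin, had 76.3 and 48.3, against 61.9 and 54.1, with overlap between the conditions.

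Ascc3, a helicase, had percentiles of 44.0 in CpG 1 and 71.6 in CpG 2, against 67.4 and 69.4 in the control libraries. Zfp607b, a zinc finger protein, had 48.5 and 43.3 in CpG libraries, against 93.7 and 75.8 in control libraries, and was lower in both CpG libraries. The summits of Ascc3 kept within 25 bp of each other, at 167, 164, 142 and 144 bp from the start. The unnamed gene ENSMUSG00000011960 on chromosome 15 had 59.6 and 79.6, against 55.7 and 41.7. No test was made for single regions.

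**Figure D5:**
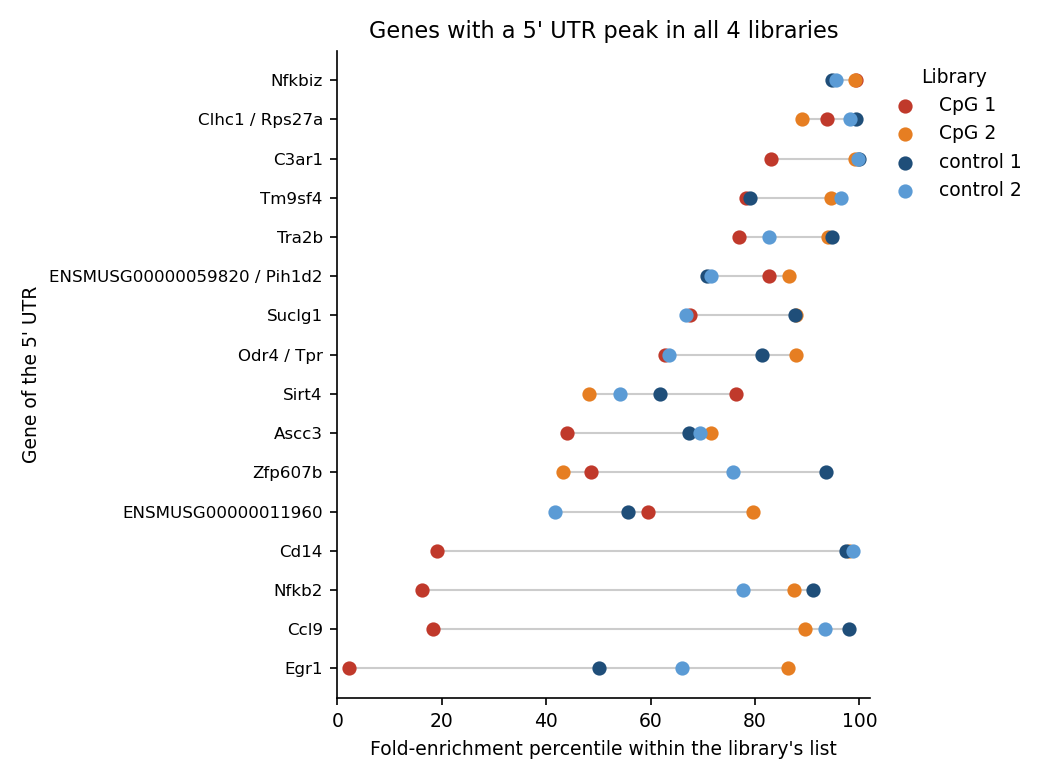
Percentile of fold enrichment within the library's own list for 12 regions with a 5' UTR peak in all 4 libraries, followed by Cd14, Nfkb2, Ccl9 and Egr1 from the gene lists, 1 point per library. At these last genes the CpG 1 points lie between 2.23 and 19.1, while the points of the other libraries are at 50.1 or above.

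Members of the gene lists with a 5' UTR peak in every library are named here. Over all 11332 named protein-coding genes nearest to a peak, 63 had one in every library. Nfkbiz was joined by Cd14, the co-receptor for lipopolysaccharide, Nfkb2, the p100 precursor of NF-kB, the chemokine Ccl9 and the immediate early factor Egr1. Cd14 had percentiles of 19.1 in CpG 1 and 98.0 in CpG 2, against 97.4 in control 1 and 98.8 in control 2. Nfkb2 had 16.3 and 87.4 in CpG libraries, against 91.2 and 77.7 in control libraries. Ccl9 had 18.3 and 89.5, against 98.1 and 93.4. At each of these genes CpG 1 was far below the other libraries. Egr1 had 2.23 and 86.4, against 50.1 and 66.1, and its summit was 205 bp from the start in CpG 1 and 781 bp in CpG 2, against 201 bp in control 1 and 1157 bp in control 2.

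Regions with a peak in both CpG libraries and in neither control library numbered 29, or 1.42% of the 5' UTR regions, where 1.15% of all regions had that pattern. That share is near the background. In 9 of the 29 both CpG peaks were themselves in the 5' UTR class, and no control peak came within 1000 bp of these 9. Without CpG 1 there were 151 such regions, 57 without CpG 2 and 59 without control 2. None of the genes of the 14 lists was among the 29.

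The lower percentile of the 9 regions over both CpG libraries ran from 8.20 to 50.4. Anp32a, an acidic nuclear phosphoprotein, had fold enrichments of 5.15 in CpG 1 and 6.24 in CpG 2, at the 50.4th and 51.7th percentile, and its nearest control peaks were 1161 and 1302 bp away. Rps7, a ribosomal protein, had 4.90 and 6.0, and Strn, a scaffold of the phosphatase PP2A, had 6.17 and 5.79. Arhgap24, a GTPase activator, had 5.00 and 5.76, and the motor protein Myo5a had 4.75 and 6.21. The percentiles of these 5 genes lay between 38.3 and 75.7. Cldnd1, a claudin-like membrane protein, had 4.38 in CpG 1 and 7.62 in CpG 2. Anxa6, an annexin, had 6.67 and 4.27, and Pan3, a subunit of a poly(A) nuclease, had 3.8 and 3.98. The last was the gene without a name ENSMUSG00000074826 on chromosome 13, with 6.32 and 6.07.

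The opposite pattern, a peak in both control libraries and in neither CpG library, was found at 250 regions, or 12.2% of the 5' UTR regions, where 8.70% of all regions and 11.2% of regions with a promoter peak had it. The list of CpG 1 is the shortest, and with lists of equal length the count was 141. Without CpG 2 it was 763. In 96 of the 250 both control peaks were in the 5' UTR class, and at 14 of these 96 a CpG peak lay within 1000 bp.

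These regions included stronger peaks than the CpG-only ones. Anp32e, a chaperone of the histone variant H2A.Z, had no peak in either CpG library, and fold enrichments of 18.9 in control 1 and 16.9 in control 2, at the 99.3rd and 95.8th percentile. The nearest CpG peaks were 13249 and 21069 bp away. Arnt, the dimer partner of the hypoxia-inducible factors and of the aryl hydrocarbon receptor, likewise had none in CpG libraries, and 15.6 and 11 in control libraries. Its gene is on chromosome 3 at 95341698 to 95404551 on the plus strand, and both summits lay about 100 bp into it, at 106 and 93 bp.

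Mpp1, a membrane-associated scaffold protein of the X chromosome, had 10.3 in control 1 and 12.7 in control 2, with a CpG 2 peak 761 bp away. Ugcg, which makes glucosylceramide, had 13.9 and 10.7, and a CpG 2 peak lay 189 bp from its region. The absence at Ugcg therefore concerns the exact interval and not the neighbourhood. Dnajc7, a co-chaperone, and Nkiras2, an inhibitor of NF-kB activation related to Ras, share a region with 8.58 and 11.7 in the control libraries. Tsc22d4 had 10.7 and 9.09, and Pym1, which takes part in recycling exon junction complexes, had percentiles of 91.7 and 77.3. Trim16, a member of the tripartite motif family, had 8.23 and 8.38, and Serpinb8, a serine protease inhibitor, had 7.04 and 12.9. The unnamed gene ENSMUSG00000000276 had 7.95 and 9.5. All 10 named control-only regions lay above the 72nd percentile in both control libraries, which follows from the ranking that chose them.

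Among members of the gene lists, Ifit2, Irf7 and Mitf lay in control-only regions. Ifit2, an interferon-induced RNA-binding protein, had percentiles of 45.5 in control 1, with a summit 19599 bp from the start, and 52.2 in control 2 at 68 bp. These summits lay far apart, and no single control-only region held a 5' UTR peak of Ifit2 in both control libraries. Irf7, the interferon regulatory factor that drives interferon alpha genes, had a 5' UTR peak in control 2 alone, with a fold enrichment of 5.00 at the 26.1st percentile. Mitf, a factor for lysosomal and pigment genes, had 6.15 in control 2 alone. These were weak or moderate peaks, and Irf7 and Mitf had a peak of another class in control 1.

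The gene lists were compared with a background of 11332 named protein-coding genes that are nearest to a peak in any of the peak lists. Members of the gene lists were likewise counted only where the files name them, so both leave out genes nearest to no peak. Of the 11332 genes, 2009 (17.7%) had a 5' UTR peak in at least 1 library and 63 in all 4. Those genes had a median best percentile of 50.2. By library the background was 265 genes in CpG 1 and 891 in CpG 2, against 979 in control 1 and 1024 in control 2. The lists are short, were not tested as sets and were chosen with results of these data known.

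Of 14 NF-kB subunits and regulators 6 (42.9%) had a 5' UTR peak, with 3 in CpG 1 and 4 in CpG 2, against 4 in control 1 and 5 in control 2. Their median best percentile was 91.4. Besides Nfkbiz and Nfkb2, Tnfaip3, the ubiquitin-editing enzyme A20, had percentiles of 91.6 in CpG 2, 85.2 in control 1 and 69.5 in control 2. Rel had 18.5 in CpG 2 and 96.1 in control 1, and the inhibitor Nfkbia had 16.2 in CpG 1 and 84.0 in control 2. Nfkbie had a single peak, in control 2.

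Of 30 interferon-stimulated genes 10 (33.3%) had a 5' UTR peak, 1 in CpG 1 and 2 in CpG 2, against 5 in control 1 and 7 in control 2. None had one in all 4 libraries, and their median best percentile was 52.8. Gbp2, a guanylate-binding protein, had fold enrichments of 9.07 in CpG 1 and 14.8 in CpG 2, at the 95.5th and 94.7th percentile. It had no 5' UTR peak in the control libraries, where control 1 had a promoter peak of 4.33 and control 2 had neither. It was singled out after its values were seen. Usp18, a protease that removes ISG15, had percentiles of 46.5 in CpG 2, 83.4 in control 1 and 8.02 in control 2, with summits 137, 136 and 138 bp from the start. Tap1, the peptide transporter of antigen presentation, had 63.9 in control 1 and 49.2 in control 2.

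Among inflammatory cytokines and chemokines 10 of 28 (35.7%) had a 5' UTR peak, 1 in CpG 1 and 3 in CpG 2, against 7 in control 1 and 4 in control 2. The highest was Ccl7, a monocyte chemoattractant, in control 1 alone, with a fold enrichment of 29.3 at the 99.9th percentile. Il10, an anti-inflammatory cytokine, was at the 97.5th percentile in control 1 and Il6 at the 62.4th there, and neither had a 5' UTR peak in another library. Of the 10 genes, 7 had a 5' UTR peak in a single library, as did 1264 of all 2078 gene IDs with such a peak. Of 26 genes of TLR9 and MyD88 signalling 7 (26.9%) had one, among them Tlr2 with percentiles of 86.7 in CpG 1, 85.0 in CpG 2 and 63.4 in control 1.

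The highest or the longest 5' UTR peak of a library was at Nfkbiz, C3ar1, Klf6, C1qc, Gsk3b or Lrrc25. Klf6, an early response factor, had the highest and longest of control 1, with a fold enrichment of 37.2 over 12477 bp. The other libraries had their strongest peak of that region outside the 5' UTR, at 7.81 in CpG 1, 19.7 in CpG 2 and 21.0 in control 2. C1qc, a chain of complement C1q, had the highest of CpG 2, with 31.8 at 12 bp from the start, and the longest of control 2, 4232 bp with a fold enrichment of 24.8. In CpG 1 and control 1 its region had its summit in the promoter class. Gsk3b, a kinase, had the longest of CpG 1 with 747 bp, and Lrrc25, a leucine-rich repeat protein, the longest of CpG 2 with 3353 bp.

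Of the genes named whatever they showed, Irf5 itself had a 5' UTR peak in control 1 alone, with a fold enrichment of 5.86 at the 52.5th percentile and a summit 112 bp from the start. Its promoter class peaks had 4.52 in CpG 2, against 3.65 in control 1 and 11.9 in control 2, and CpG 1 had neither kind. Atf4, a stress factor whose mRNA is known for upstream reading frames in its 5' UTR, had percentiles of 90.6 in CpG 2 and 97.6 in control 1, with summits 155 and 156 bp from the start. Fth1, a ferritin chain known for an iron-responsive element in its 5' UTR, had 74.9 in CpG 2, 70.0 in control 1 and 92.7 in control 2. Irf1, Irf8, Tlr9, Myd88, Tnf, Il1b, Spi1, Csf1r, Cebpb, Jun, Junb, Fos and Ftl1 had no 5' UTR peak. Tnf, for example, had a promoter peak in every library, at percentiles of 1.14 in CpG 1 and 80.4 in CpG 2, against 95.4 in control 1 and 22.0 in control 2.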

How the data were processed

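Peaks of 4 anti-IRF5 CUT&Tag libraries were analysed as deposited. Per the submitters' processing notes, the tools were MACS2 2.1.0, BWA 0.7.12, ChIPseeker and fastp 0.20.0. No genome build is named by the labels, notes or headers read here. The authors deposited per peak a pileup (signal at the summit), a fold enrichment (ratio to local background), and the −log10 of its p-value and q-value, whose damaged column headers were read from order and values. The lowest deposited −log10 p was 5.00. Continuation lines of overlong annotation cells and peaks on other contigs were left out.

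Gene starts and strands were read from the annotation of the nearest gene in the lists. Fold enrichment was turned into a percentile within each list, and no model was fitted, as the lists hold no read counts. Depth is unknown, so no counting interval is given, and 2 libraries per condition limit precision. Conditions were compared by two-sided exact permutation tests over libraries, and classes of peak by exact sign-flip tests over the 4 libraries. Merging and the patterns of sharing were tested on simulated lists, and the permutation test on made-up values. Python 3.11.15 with pandas 2.3.3 and numpy 2.4.6 was used.

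Genes were named by rule: the 12 recurrent regions with the highest lowest percentile, up to 10 CpG-only and 10 control-only regions by the same ranking, members of 14 gene lists with such a pattern, the highest and longest peak per library, and 16 fixed genes. Members of the gene lists beyond that rule, such as Tnfaip3, Usp18 and Ccl7, were chosen after their values were seen. The 5' UTR peaks, lists and tests were chosen with earlier results of these data known. The alternatives were a stricter q-value, lists of equal length, inclusion of peaks with the promoter class, other measures of rank, a larger overlap, the authors' lists for whole conditions, each library left out, and the replicate number as a block.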

Additional observations from a re-analysis of the deposited data

How the results depend on the processing

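Of 85 alternative values, 71 kept their sign, for differences, or stayed close to the reported value, for counts. The size of a difference was not judged. The percentile difference of -9.57 became -0.668 with lists of equal length and was still among the 71. The values of the replicate block are also among them, although that setting cannot change a difference. The difference in the share of 5' UTR peaks reversed, with 0.358 percentage points without CpG 1 where it was -0.364 over all libraries. The 29 CpG-only regions became 11 with a −log10 q of at least 10, 9 with a 5' UTR peak required in both libraries and 94 in the authors' lists for whole conditions. The 250 control-only regions became 141 with lists of equal length, 96 with a 5' UTR peak required in both libraries and 587 in the lists for whole conditions. The 397 recurrent regions became 65 with the stricter q and 235 with lists of equal length. The cause was not tested, beyond the fewer peaks that these settings keep.

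Leaving out 1 library at a time gave -746.0 to -125.0 for the difference in number, -1.09 to 0.358 for the share, -11.0 to -8.11 for the percentile, -189.0 to -57.0 bp for length and -24.5 to -5.00 bp for summit distance. The share overlapping every other library ranged from 8.60 to 44.7 points, CpG-only regions from 42 to 151, control-only regions from 266 to 763 and recurrent regions from 357 to 972. The replicate block, which pairs libraries of the same number, left every difference as it was (-435.5 for the number) with an exact sign-flip p of 0.5, the smallest that 2 pairs allow, or 1.00 for the share. With only 2 pairs, the labels and the data do not show that the numbers pair the libraries.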

Other observations

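Among the other lists, 10 of 30 lysosome and phagocytosis genes (33.3%) had a 5' UTR peak, against 17.7% of the background of protein-coding genes nearest to a peak. Grn, which encodes progranulin, had a fold enrichment of 7.30 in CpG 1 and 11.1 in control 1. Tfeb, a regulator of lysosomal genes, had 6.59 in CpG 2, 9.24 in control 1 and 8.14 in control 2, with summits 68, 70 and 64 bp from the start. Of 25 immediate early genes 7 (28.0%) had one, among them Zfp36, an mRNA decay factor, with 2.61 in CpG 1 and 17.1 in control 1.

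Of 31 genes on the list of cytoplasmic ribosomal proteins 4 (12.9%) had a 5' UTR peak, none of them in CpG 1. Rps7 and Rps27a, which had a 5' UTR peak in CpG 1 with fold enrichments of 4.90 and, at the start shared with Clhc1, 8.55, are not on that list. Rps9 had 12.6 in control 1 and 23.0 in control 2. Of 17 housekeeping genes 7 (41.2%) had one, with 2 in CpG 1 and 6 in CpG 2, against 1 in control 1 and 2 in control 2. Of 7 genes of unrelated tissues none had a 5' UTR peak. Of 16 glycolysis genes 5 (31.2%) had one, of 21 chromatin modifiers 3 (14.3%), of 25 genes with translation control in the 5' UTR 7 (28.0%), of 22 macrophage identity genes 4 (18.2%) and of 8 IRF family genes 3 (37.5%). The list members beyond the named rule were chosen after their values were seen, and no list was tested as a set.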
